A study of Mus musculus with 15 samples.

Results

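8 genes of the salivary acinar cell were followed through 5 groups of mouse submandibular gland: the transcription factors Bhlha15, Spdef and Creb3l1, and the secreted products Mucl2, Car6, Pip, Lpo and Bpifa2. They were chosen by name, as 8 of the 39179 genes in the count tables, and all 8 passed the filter on low counts that left 14300 genes for testing. The glands came from adult male C57BL/6 wild-type mice and were sequenced as total RNA in 15 libraries, 3 per group. NT glands were untreated. IR glands were irradiated locally and taken at 7 days. IR+GFP, IR+Gli1 and IR+Shh glands were irradiated and taken in the same way, and had also received the named gene by transfer into the gland. Gli1 is the transcription factor that Hedgehog signalling induces, Shh the ligand that starts it, and GFP, green fluorescent protein, the transferred control. The labels give neither the vehicle, nor the dose of irradiation, nor the species of the transferred genes, nor whether the libraries of a group came from separate animals. P-values below therefore measure the spread between these samples, which may be technical. In the counts, mouse Shh had 0 reads in all 15 libraries, and mouse Gli1 lay at 0.878 to 0.962 CPM (parts-per-million of all gene reads) in IR+Gli1, at 2.50 to 4.21 in IR+Shh and at 0.424 to 0.747 elsewhere. Whether reads of the transferred genes could have been counted under these mouse genes was not tested.

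Acinar cells make the primary saliva, and they are filled with granules of a few very abundant proteins. Bhlha15 (Mist1) is a basic helix-loop-helix factor that shapes the granule-storing, exocytotic architecture of serous cells. Spdef is an ETS factor that drives the mucous programme in goblet and mucous cells, and Creb3l1 (OASIS) is a membrane-bound factor released from the endoplasmic reticulum that raises the capacity of the secretory pathway. Among the products, Mucl2 is a mucin-like secreted protein, Car6 is the secreted carbonic anhydrase that buffers saliva, and Pip is a small secreted glycoprotein found in many exocrine fluids. Lpo is lactoperoxidase, an antimicrobial enzyme that works on hydrogen peroxide, and Bpifa2 is the parotid secretory protein, a major product of the mouse parotid and sublingual glands.

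Some libraries stood apart before any comparison was made. The libraries held 18205941 to 41064723 gene reads. In each group, 1 pair of libraries differed by less than the sampling noise, with a mean chi-square per gene of 0.215 to 0.337 against 22.0 to 223 in the other 10 pairs within groups. These pairs (libraries 2 and 3 of NT, 1 and 3 of IR+Shh, and 1 and 2 of each other group) were counted as 1 sample each, so every group holds n = 2 samples. NT 2 and NT 3 carried the mRNAs of the sublingual gland, a mucous gland that lies against the submandibular gland: Muc19, Smgc, Dcpp1, Dcpp2 and Dcpp3 summed to 31435 and 31486 CPM there and to 1.42 in NT 1. The same sum was 164 and 154 in IR+GFP 1 and 2 and at most 1.72 in the other 10 libraries. IR+GFP 3 and IR+Gli1 3 held 1565 and 2164 CPM of Wfdc12 against 1.12 to 3.93 elsewhere, and 8.22% and 7.53% of their reads had several alignments against 2.89% to 4.79% in the rest. Markers of granular convoluted tubules (10 of 10 genes read, summed 79856 to 244355 CPM) and of acinar cells (8 of 8 genes, 11013 to 47584) were present in all libraries, as the labelled tissue has them. Most of the acinar sum was Prol1, at 39661 and 45781 CPM in IR+GFP 3 and IR+Gli1 3 and at 9771 to 19997 elsewhere. Of 5 parotid markers 4 are in the tables and summed to 22.6 to 28.6, nearly all of it Amy1, with Prh1 and Prb1 each at 0.103 or less.

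Mucl2 was the gene with the most reads in all 10 samples. Mucl2 (ENSMUSG00000036925, chr15:103895855-103899312, minus strand, GRCm38) held 23.8% of all gene reads in NT 1 and 16.7% in NT 2 and 3. It held 22.5% and 28.0% in the IR samples, 27.6% and 27.2% in IR+GFP, 12.3% and 17.9% in IR+Gli1, and 32.5% and 28.4% in IR+Shh. Both IR+Gli1 samples were below all samples of IR, IR+GFP and IR+Shh, and their range overlapped that of NT. Ordered by mean, IR+Gli1 was lowest, then came NT, IR, IR+GFP and IR+Shh. Neighbours overlapped up to IR+GFP, and the 2 IR+Shh samples lay just above the highest IR+GFP and IR samples.

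**Figure D1:**
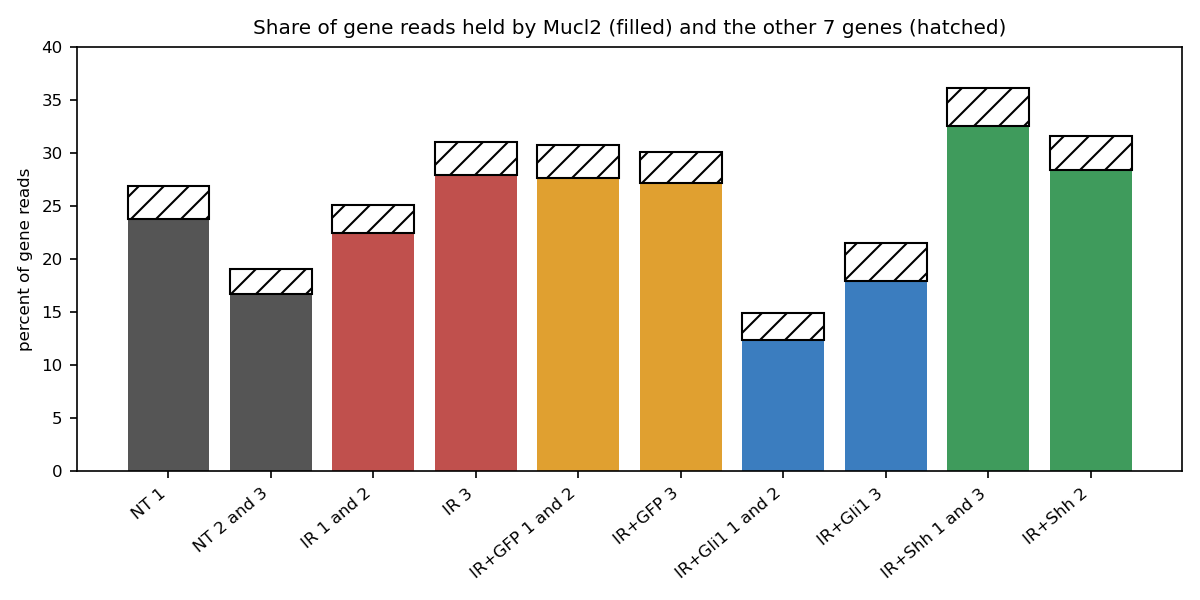
Percent of all gene reads (y axis) held by Mucl2 (filled) and by the other 7 genes together (hatched) in the 10 combined samples (x axis). The 8 genes took 14.9% and 21.5% of the reads in IR+Gli1 and 25.1% to 36.1% in IR, IR+GFP and IR+Shh, and nearly all of that difference is Mucl2.

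All 8 genes together took 26.9% and 19.1% of the reads in NT, 25.1% and 31.1% in IR, 30.8% and 30.1% in IR+GFP, 14.9% and 21.5% in IR+Gli1, and 36.1% and 31.6% in IR+Shh. The other 7 genes, without Mucl2, took 2.42% to 3.601% in every sample, and IR+Gli1 covered most of that range (2.58% and 3.601%). Since a gene of this size sets the scale for all others, levels are given below as CPM, and tests use TMM scaling, which sets the bulk of genes equal between samples. The TMM factors were 1.72 and 1.31 in IR+Gli1 and 0.865 to 0.994 in the other samples. With total gene reads as the scale instead, the median of all genes moved by 0.774 (log2) in IR+Gli1 against IR+GFP, by -0.638 in IR+Shh against IR+Gli1 and by 0.144 in IR+Shh against IR+GFP. Changes are therefore relative to the median gene. With total reads as the scale, 67.6% of all genes passed as higher and 0.622% as lower in IR+Gli1 against IR+GFP, and 0.587% as higher and 56% as lower in IR+Shh against IR+Gli1, so counts under that scale are read beside these shares.

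Car6 and Pip came next among the products. Car6 (ENSMUSG00000028972, chr4:150187015-150201332, minus strand) had 18014 and 13219 CPM in NT, 17433 and 20575 in IR, 21334 and 20566 in IR+GFP, 16346 and 23226 in IR+Gli1, and 22959 and 21678 in IR+Shh. The IR+Gli1 samples lay on either side of IR+GFP and IR+Shh, so Car6 showed no shared shift on this scale. Pip (ENSMUSG00000058499, chr6:41847535-41852065, plus strand) had 12192 and 8536 in NT, 8333 and 9645 in IR, 9692 and 7457 in IR+GFP, 8020 and 11175 in IR+Gli1, and 11581 and 9151 in IR+Shh. For Pip the ranges of all 5 groups overlapped. Lpo (ENSMUSG00000009356, chr11:87806428-87828289, minus strand) had 449 and 330 in NT, 499 and 612 in IR, 640 and 642 in IR+GFP, 1130 and 1221 in IR+Gli1, and 780 and 625 in IR+Shh. Lpo was highest in both IR+Gli1 samples and lowest in both NT samples, with no overlap with the other groups at either end.

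**Figure D2:**
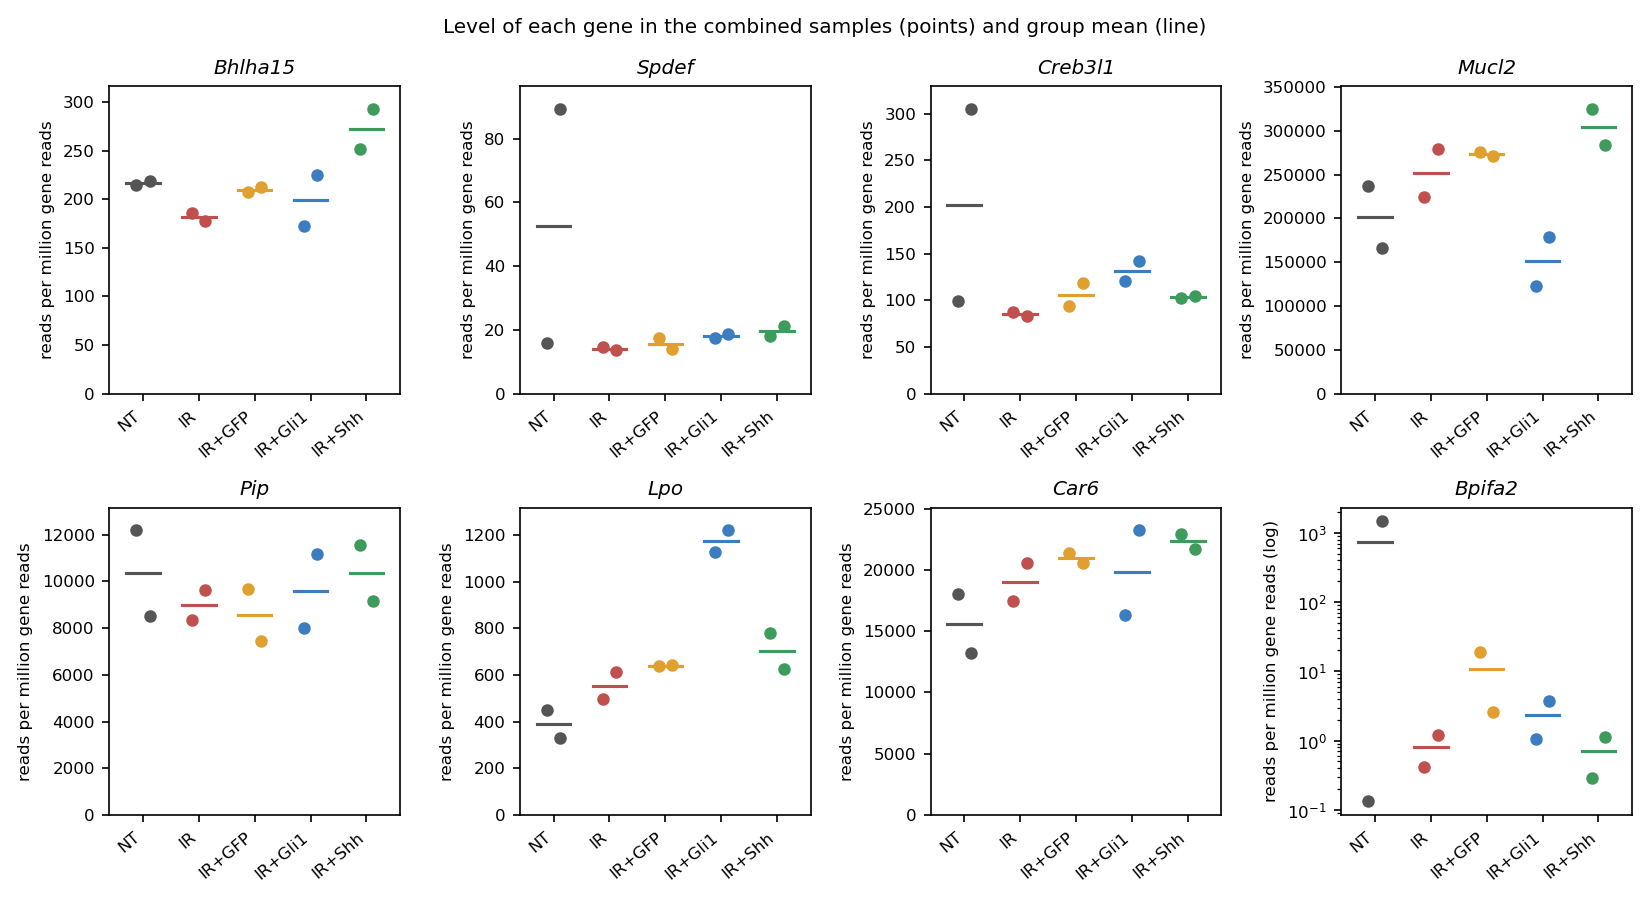
CPM (y axis, log scale for Bpifa2 only) of each gene by group (x axis), with points for the 2 combined samples per group and lines for their mean. Mucl2 is lowest and Lpo highest in IR+Gli1, Bhlha15 is highest in IR+Shh, and Spdef, Creb3l1 and Bpifa2 are set apart by 1 NT sample.

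On the scale of CPM per kilobase of exon, the mean levels of the products spread over a wide range in each group. In IR+GFP, Mucl2 stood at 261865, Car6 at 11536, Pip at 3591 and Lpo at 204. In IR+Gli1 the same means were 144554, 10895, 4019 and 375. The transcription factors were lower than Lpo: in IR+GFP, Bhlha15 stood at 60.1, Creb3l1 at 40.7 and Spdef at 6.81 per kilobase.

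Ratios between genes of 1 sample do not depend on scaling, and they separated IR+Gli1 from the other groups. Mucl2, the denominator, was lowest by mean in IR+Gli1, so a higher ratio there need not be a higher level. Against IR+GFP, Mucl2 stood at log2 -1.58 with TMM scaling, that is, relative to the median gene. A gene that moved like the median would therefore also have a higher ratio to Mucl2 in IR+Gli1. The share of all genes separated by this ratio was not counted, so the separation is not read as particular to Car6, Pip and Lpo. Car6 and Pip in IR+Gli1 overlapped other groups in CPM. Against IR+GFP they stood at log2 -0.81 and -0.57 with TMM scaling. For each 100 reads of Mucl2 there were 7.06 to 7.93 reads of Car6 in all 8 samples of the other 4 groups, and 13.26 and 12.97 in IR+Gli1. Lpo stood at 0.189 and 0.198 reads in NT, 0.222 and 0.219 in IR, 0.232 and 0.236 in IR+GFP, 0.240 and 0.220 in IR+Shh, and 0.916 and 0.682 in IR+Gli1. Pip had 3 levels by this ratio: 5.13 and 5.12 in NT, 6.50 and 6.24 in IR+Gli1, and 2.74 to 3.71 in the 6 samples of IR, IR+GFP and IR+Shh. NT was thus above IR for Pip per Mucl2 in both samples, NT 2 and 3 included. The ratio was chosen after its values were seen, and the exact permutation test of 2 samples against 2 cannot go below a two-sided p of 0.333, so these separations are descriptions.

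**Figure D3:**
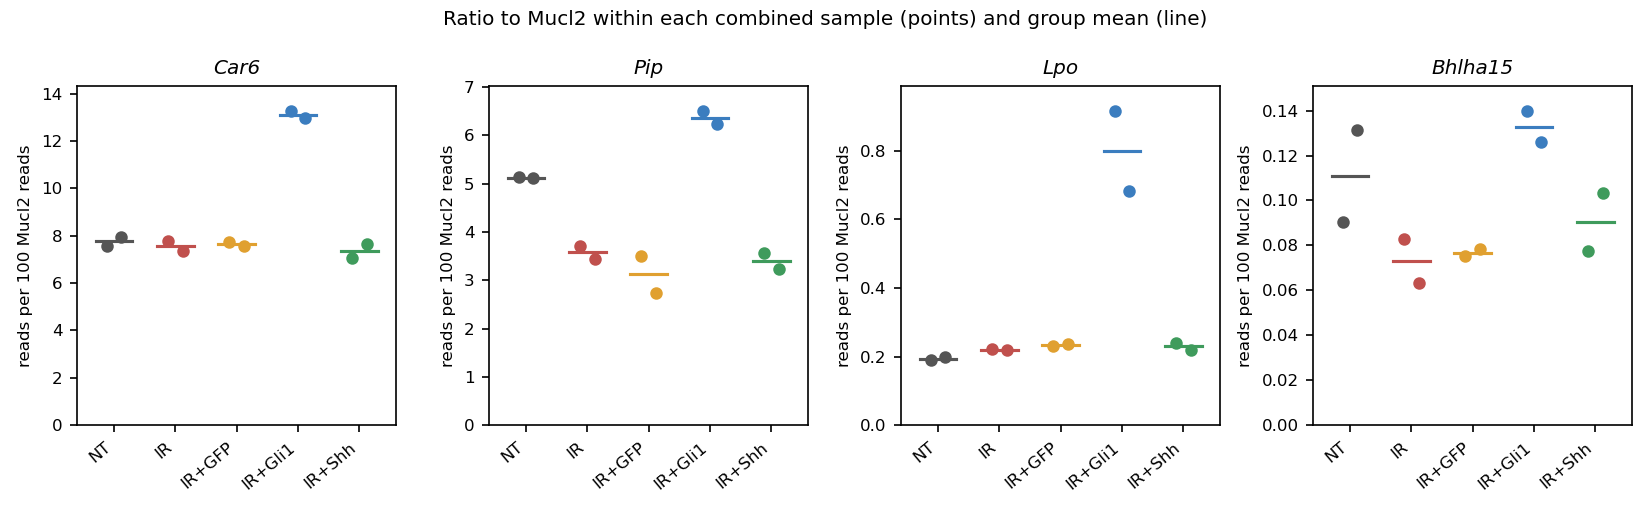
Reads of Car6, Pip, Lpo and Bhlha15 per 100 reads of Mucl2 in the same sample (y axis) by group (x axis), with points for the 2 combined samples and lines for the mean. The IR+Gli1 points lie above all others for Car6 (13.26 and 12.97), Pip (6.50 and 6.24) and Lpo (0.916 and 0.682). For Bhlha15 they overlap the range of NT. Mucl2, the denominator, is lowest by mean in IR+Gli1, so a gene that moved like the median would also lie higher there.

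Bhlha15 (ENSMUSG00000052271, chr5:144190286-144194441, plus strand) had a narrow spread within most groups. Its levels were 215 and 219 CPM in NT, 186 and 177 in IR, 208 and 213 in IR+GFP, 172 and 226 in IR+Gli1, and 252 and 293 in IR+Shh. Both IR samples lay under both NT samples, and both IR+Shh samples lay above all 8 others.

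Spdef, Creb3l1 and Bpifa2 shared 1 pattern: each was high in NT 2 and 3 and lower in the other 9 samples. Spdef (ENSMUSG00000024215, chr17:27714352-27728955, minus strand) had 89.3 CPM in NT 2 and 3, 15.8 in NT 1 and 13.7 to 21.1 in the 8 irradiated samples. Creb3l1 (ENSMUSG00000027230, chr2:91982328-92024502, minus strand) had 305 in NT 2 and 3, 99.1 in NT 1 and 83.0 to 143 in the irradiated samples. Bpifa2 (ENSMUSG00000042459, chr2:154008265-154016079, plus strand) had 1456 in NT 2 and 3 and 0.134, or 5 reads, in NT 1. It reached 19.2 in IR+GFP 1 and 2 and 0.286 to 3.67 in the other 7 samples. NT 1 thus fell within, or for Bpifa2 under, the range of the irradiated glands for all 3 genes.

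The sublingual mRNAs were high in the same NT libraries as these 3 genes. NT 2 and NT 3, with 31435 and 31486 CPM of the 5 sublingual genes, had 46.3 and 46.4 Bpifa2 reads per 1000 sublingual reads. IR+GFP 1 and 2, with 164 and 154, had 116 and 126. Elsewhere the 2 did not run together: IR+Gli1 3 had 71 Bpifa2 reads beside 9 sublingual reads, and IR+GFP 3 had 48 beside 14. Aqp5, the water channel of the acinar cell, was also higher in NT 2 and 3 (345 and 346 CPM) than in NT 1 (178) and the irradiated libraries (163 to 250). In bulk RNA, more cells of a type and more RNA per cell cannot be told apart. Spdef in IR+GFP 1 and 2, where the sublingual genes were also read, was 17.0 and 17.8, within the range of the libraries without them. The sublingual sum there was too small for a rise of Spdef in proportion to that in NT 2 and 3 to be seen.

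**Figure D4:**
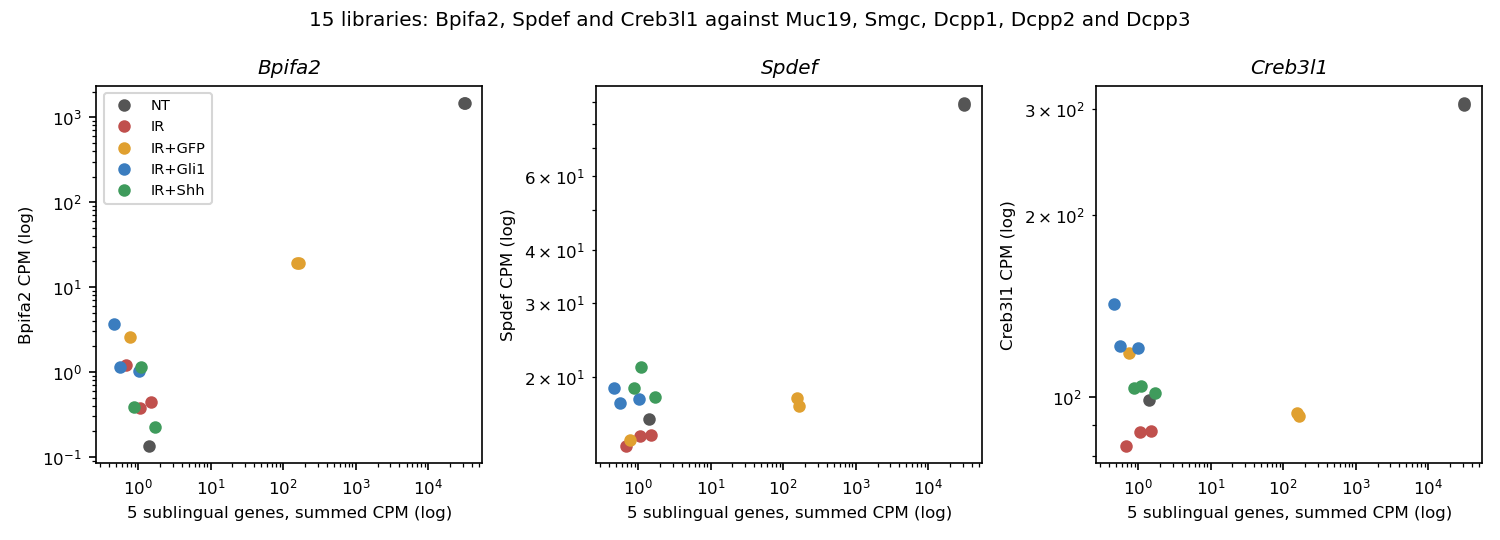
CPM of Bpifa2, Spdef and Creb3l1 (y axes, log) against the summed CPM of Muc19, Smgc, Dcpp1, Dcpp2 and Dcpp3 (x axis, log) in the 15 libraries, coloured by group. NT 2 and NT 3 lie together at the upper right of each panel (sums of 31435 and 31486). IR+GFP 1 and 2 (164 and 154) are raised for Bpifa2. At these sums a proportional rise of Spdef or Creb3l1 would be too small to see.

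Promoter stretches of RefSeq (GRCm38.p6) were matched by symbol for 7 of the 8 genes, and 4 are shown because they belong to the genes with the most distinct behaviour here: Mucl2 and Pip, abundant products whose ratio changed between groups, and Spdef and Bpifa2, the factor and the product that were high in the same NT sample. Each runs 5′ to 3′ along the gene's strand from 250 to 21 bases before the start of transcription: Mucl2 at chr15:103899333-103899562 (minus), Pip at chr6:41847299-41847528 (plus), Spdef at chr17:27728972-27729201 (minus) and Bpifa2 at chr2:154008026-154008255 (plus). Capitals mark matches on either strand to the 5 motifs searched. These were a first E-box, spelled CATATG, a second E-box, spelled CAGCTG, the core of the Spdef site, spelled GGATG, the core of the site of the Creb family, spelled ACGTG, and the TATA box, spelled TATAAA.
Mucl2: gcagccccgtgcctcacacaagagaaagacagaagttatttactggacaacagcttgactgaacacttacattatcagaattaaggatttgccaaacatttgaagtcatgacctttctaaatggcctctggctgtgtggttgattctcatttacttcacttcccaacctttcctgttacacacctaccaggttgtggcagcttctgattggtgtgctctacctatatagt
Pip: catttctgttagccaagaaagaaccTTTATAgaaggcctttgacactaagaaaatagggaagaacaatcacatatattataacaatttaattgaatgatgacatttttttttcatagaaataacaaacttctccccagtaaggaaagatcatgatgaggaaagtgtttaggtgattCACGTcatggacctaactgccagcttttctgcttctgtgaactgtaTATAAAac
Spdef: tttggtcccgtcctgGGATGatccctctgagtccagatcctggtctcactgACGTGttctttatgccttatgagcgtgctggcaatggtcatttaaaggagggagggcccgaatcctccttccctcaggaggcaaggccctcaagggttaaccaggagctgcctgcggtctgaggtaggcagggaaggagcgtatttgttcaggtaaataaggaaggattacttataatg
Bpifa2: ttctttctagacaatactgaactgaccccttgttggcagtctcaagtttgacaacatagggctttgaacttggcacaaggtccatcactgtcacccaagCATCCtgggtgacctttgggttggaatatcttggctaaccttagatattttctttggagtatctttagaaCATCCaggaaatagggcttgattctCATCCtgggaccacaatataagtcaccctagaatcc

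Bpifa2 held GGATG 3 times, each on the minus strand and so printed as its reverse complement, at positions -151, -81 and -56 from the start. At least 3 matches were found in 1.498% of 32851 promoters of the same length, and at least 1 in 35.2%. Spdef held GGATG at position -235 and ACGTG at -199, and Lpo held GGATG once. ACGTG was also found in Pip and, on both strands at 1 overlapping place, in Car6; 15.1% of promoters hold it. Pip held TATAAA at position -28, and again on the minus strand at -225, against 11.8% of promoters. CAGCTG was found in Car6 alone of the 7 (11.8% of promoters) and CATATG in none (3.31%). No match to the 5 motifs was found in the stretches of Mucl2 and Bhlha15. A match describes letters and not binding, and these data hold no measurement of binding.

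IR against NT asks what had changed in the gland 7 days after irradiation. None of the 8 genes passed edgeR's quasi-likelihood test at an adjusted p of 0.05, where 0.678% of all 14300 genes did (0.517% higher and 0.161% lower). The levels of Mucl2, Car6 and Pip differed by log2 0.34 ± 0.34 (SE), 0.30 ± 0.29 and -0.18 ± 0.32, all within the spread. Lpo was 0.53 ± 0.22 higher and Bhlha15 -0.23 ± 0.21 lower, with edgeR adjusted p-values of 0.264 and 0.613. At an unadjusted p under 0.05 there were 4 genes, Lpo, Spdef, Creb3l1 and Bpifa2, beside 17.5% of all genes. DESeq2 passed 1, Bpifa2, beside 3.96%.

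The differences of Spdef (log2 -1.85 ± 0.74), Creb3l1 (-1.20 ± 0.48) and Bpifa2 (-9.77 ± 3.80) rested on NT 2 and 3. Without that sample they were -0.17, -0.21 and 2.07, the last with its direction turned. With NT 2 and 3, the libraries with the sublingual mRNAs, as the only NT sample, they were -2.61, -1.79 and -10.77. The difference of Lpo was 0.31 without NT 2 and 3, and those of Mucl2 and Car6 were 0.09 and 0.08. In each such fit the lone sample is assumed to vary like the other groups, so only the differences are given.

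IR+GFP against IR asks what the transfer of a control gene added. No gene passed among the 8 or among all 14300 (0% called), and none of the 8 had an unadjusted p under 0.05 (2.08% of all genes) or passed with DESeq2 (0.0559%). Log2 differences were 0.22 for Bhlha15, 0.17 for Spdef, 0.31 for Creb3l1, 0.13 for Mucl2, -0.06 for Pip, 0.21 for Lpo and 0.15 for Car6. Bpifa2 stood at 22.2 and 2.95 TMM-scaled CPM in IR+GFP and at 0.476 and 1.35 in IR, a difference of 3.81 ± 3.31 that leans on IR+GFP 1 and 2, the sample with 164 and 154 CPM of sublingual mRNA.

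IR+Gli1 against IR+GFP asks what Gli1 transfer changed in irradiated glands. Mucl2 and Bhlha15 fell, 2 of 8 genes, where 13.9% of all genes passed (8.23% higher and 5.71% lower). Mucl2 went from 319202 and 307068 TMM-scaled CPM in IR+GFP to 71875 and 136977 in IR+Gli1, a fall of 2.999-fold (log2 -1.58 ± 0.35, edgeR adjusted p = 0.0176). It also fell under total-read scaling (-0.86, edgeR adjusted p = 0.00343), where 0.622% of all genes passed as lower. DESeq2 passed 3 of the 8, these 2 and Car6, beside 14.7% of all genes. Bhlha15 went from 240.1 in both samples to 100.5 and 173, a fall of 1.76-fold (-0.82 ± 0.21, edgeR adjusted p = 0.0319). Bhlha15 also passed with DESeq2's size factors as the scale (-0.83, edgeR adjusted p = 0.0300). With total reads as the scale the call was lost: the difference of Bhlha15 was -0.08 (edgeR adjusted p = 0.684), as the 172 and 226 CPM beside 208 and 213 show.

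The other members of this comparison did not pass edgeR's test with TMM scaling. Car6 differed by -0.81 ± 0.30 (edgeR adjusted p = 0.101), and with DESeq2 it passed at -0.82 (DESeq2 adjusted p = 0.00466). Pip differed by -0.57 ± 0.32 (0.270), Spdef by -0.56 ± 0.74, Creb3l1 by -0.43 ± 0.47, Lpo by 0.12 ± 0.22 and Bpifa2 by -2.997 ± 2.97. On the scale of total reads Lpo was higher by 0.88 ± 0.19 and passed (edgeR adjusted p = 0.00152), as did 67.6% of all genes in that direction, while Car6 stood at -0.08 and the signs of Pip (0.16), Creb3l1 (0.32) and Spdef (0.20) turned. Put against the median gene, then, Mucl2 and Bhlha15 were lower in IR+Gli1, and put against all reads, Mucl2 was lower and Lpo, like most genes, higher. Of the 8, Mucl2 was the 1 called under both.

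Single samples weighed on these calls, and those of Mucl2 and Bhlha15 did not hold in every fit without 1 sample. Such a fit leaves 1 sample in a group, so only the differences are given. Without IR+Gli1 3 they were -2.13 for Mucl2, -1.26 for Bhlha15, -1.34 for Car6 and -1.08 for Pip. Without IR+Gli1 1 and 2, Mucl2 stood at -1.20 and Bhlha15 at -0.49. Leaving out either IR+GFP sample kept the differences near their size, Mucl2 at -1.56 and -1.62 and Bhlha15 at -0.82 in both. With IR+GFP 3 and IR+Gli1 3 both left out, Mucl2 stood at -2.16, Bhlha15 at -1.26, Car6 at -1.38 and Pip at -1.27. A fit of these 2 groups alone passed none, and the share of all genes passing was not counted there.

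**Figure D5:**
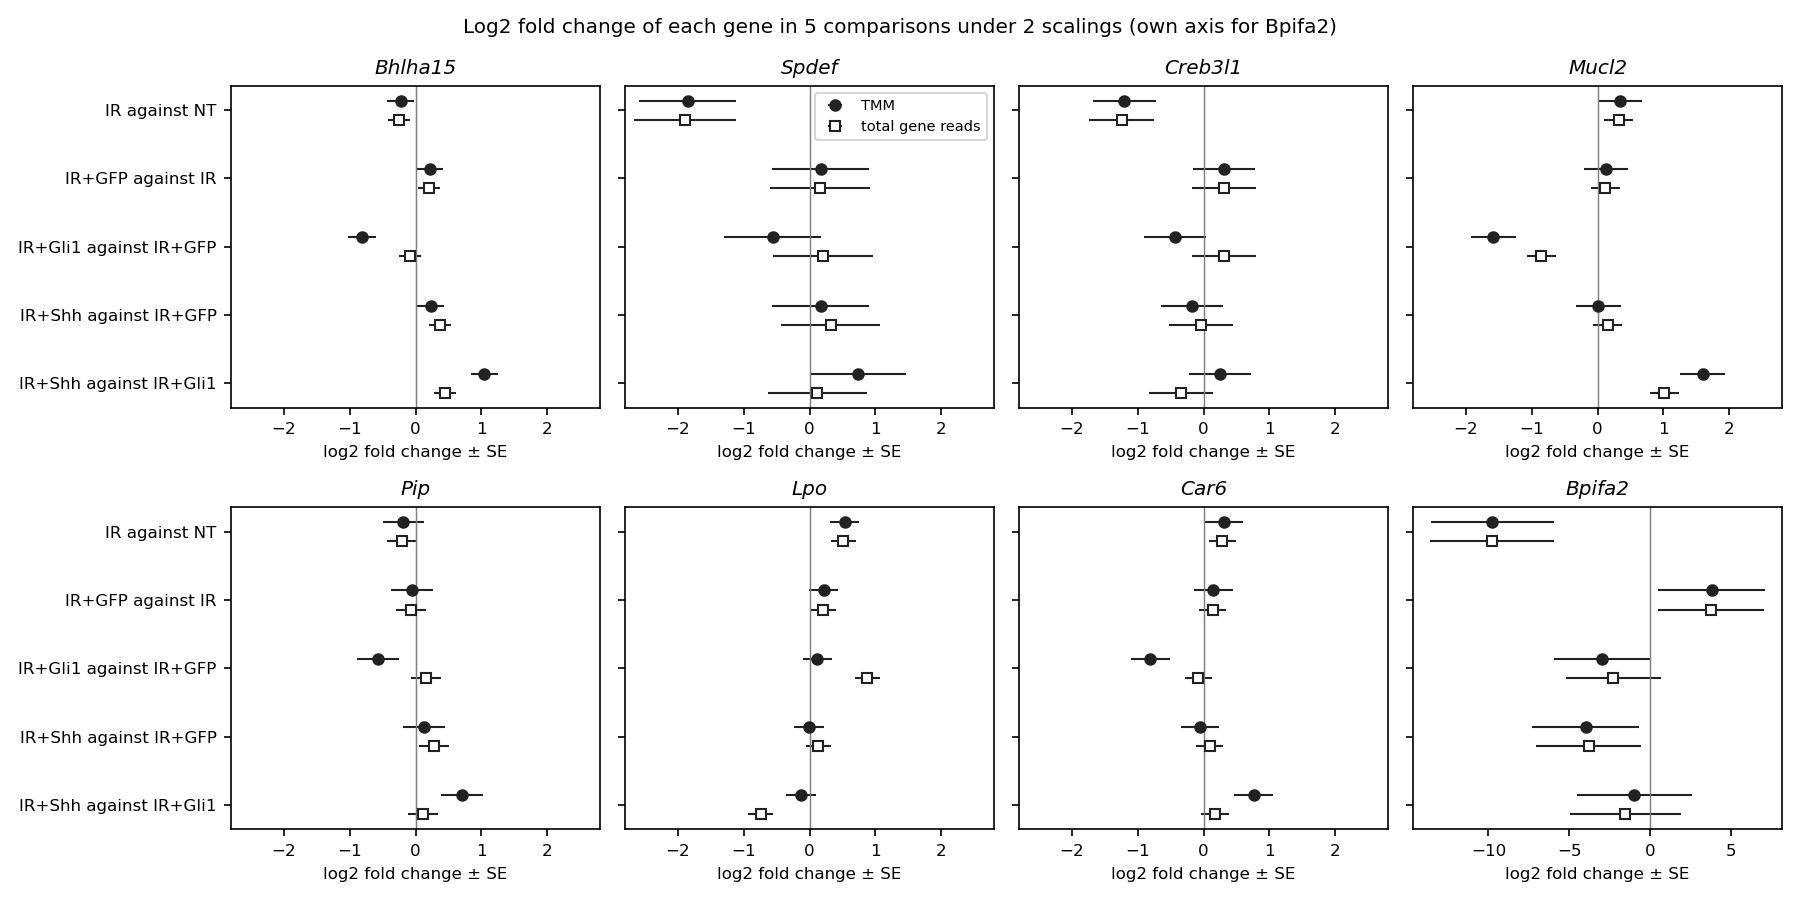
Log2 fold change with its standard error (x axis) of each gene in the 5 comparisons (y axis), with TMM scaling (filled circles) and total gene reads as the scale (open squares); Bpifa2 has its own axis. In IR+Gli1 against IR+GFP, Mucl2 lies left of 0 under both scalings (-1.58 and -0.86), Bhlha15 lies clearly left of it under TMM and near 0 under total reads (-0.82 and -0.08), and Lpo lies near 0 under TMM and right of it under total reads (0.12 and 0.88).

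Summed CPM of markers of other cells differed in IR+Gli1. CPM is on the scale of total reads, where the median gene stood 0.779 (log2) higher in IR+Gli1 than in IR+GFP. The higher sums below were not set against that shift. Summed over the list, CPM of 6 macrophage markers were 289 to 378 in the 2 IR+Gli1 samples and 60.9 to 138 in the other 8, and those of 8 interferon-response genes were 938 to 2421 against 52.8 to 164. The 6 markers of other ducts and ionocytes summed to 510 to 747 against 276 to 337, and the 3 of endothelium to 37.1 to 58.3 against 9.64 to 21.2. The 5 of myoepithelial and basal cells summed to 935 to 989 against 597 to 904, and the 6 of lymphocytes to 20.7 to 67.4 against 1.03 to 4.47. Sums of the 4 fibroblast markers overlapped, at 203.7 to 211.6 against 112.6 to 203.8. Granular tubule markers moved the other way, at 79889 to 114632 against 123055 to 244337. So did Scgb1b27, at 7849 to 13047 against 20477 to 30112. It was the 1 gene measured of 2 listed for the lacrimal gland. With such levels in all samples, its values are not read as lacrimal tissue. Fat (0 to 6.82) and skeletal muscle (1.53 to 4.57) markers were low in all samples. The part of these cells in the values of the 8 genes was not tested.

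IR+Shh against IR+GFP asks the same of Shh transfer. No gene passed among the 8 or among all 14300 (0% called), and none of the 8 had an unadjusted p under 0.05 (6.1% of all genes) or passed with DESeq2 (0.238%). Bhlha15 stood at 268 and 295 TMM-scaled CPM against 240.1 in both IR+GFP samples, a difference of 0.23 ± 0.21 (edgeR adjusted p = 0.858) in which both IR+Shh samples were higher. Mucl2 (0.01), Lpo (-0.01), Car6 (-0.05) and Pip (0.13) differed little beside standard errors of 0.22 to 0.34. Spdef and Creb3l1 stood at 0.17 and -0.18, and Bpifa2 at -3.98 ± 3.30, where IR+GFP 1 and 2 again is the high sample.

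IR+Shh against IR+Gli1 sets the 2 Hedgehog genes side by side. Mucl2 and Bhlha15 were higher in IR+Shh, 2 of 8 genes, where 7.76% of all genes passed (2.76% higher and 4.99% lower). Mucl2 stood at 345537 and 285584 TMM-scaled CPM in IR+Shh, 3.02-fold above IR+Gli1 (log2 1.60 ± 0.35, edgeR adjusted p = 0.0285). Bhlha15 was 2.06-fold higher (1.04 ± 0.21, edgeR adjusted p = 0.0229). With total reads as the scale both still passed, Mucl2 at 1.01 and Bhlha15 at 0.45 (edgeR adjusted p = 0.0029 and 0.0302), where 0.587% of all genes passed as higher. Lpo then passed as lower in IR+Shh (-0.74, edgeR adjusted p = 0.00604), as did 56% of all genes. DESeq2 passed 3 of the 8, these 2 and Car6, beside 11% of all genes. This comparison shares its IR+Gli1 samples with the one above, so the 2 are not independent.

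The remaining members in IR+Shh against IR+Gli1 gave Car6 at 0.76 ± 0.30 (edgeR adjusted p = 0.143, DESeq2 adjusted p = 0.0129), Pip at 0.70 ± 0.32 (0.197), Spdef at 0.73 ± 0.73, Creb3l1 at 0.25 ± 0.47, Lpo at -0.13 ± 0.22 and Bpifa2 at -0.98 ± 3.56. The spread of Spdef came mostly from NT 2 and 3, which enters every comparison through the shared estimate. With that sample left out of the fit, an alternative added after the data were seen, Spdef stood at 0.74 with a standard error of 0.18. That fit leaves 1 NT sample, so only the difference and its error are given. With total reads as the scale Spdef stood at 0.11 (edgeR adjusted p = 0.904). The calls of Mucl2 and Bhlha15 did not hold in every fit without 1 sample here either. Without IR+Gli1 1 and 2, Bhlha15 stood at 0.72 and Mucl2 at 1.21. Without IR+Gli1 3, Mucl2 stood at 2.14, Bhlha15 at 1.49, Car6 at 1.28 and Pip at 1.21.

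Other genes of the acinar programme were counted in lists that do not hold the 8 genes. Of all genes, 8.23% passed as higher and 5.71% as lower in IR+Gli1 against IR+GFP with TMM scaling. In IR+Shh against IR+Gli1 these shares were 2.76% and 4.99%. Of 14 acinar and secretory transcription factors, 13 were tested. In IR+Gli1 against IR+GFP, Elf3, an epithelial ETS factor, rose by log2 0.75 ± 0.16 (edgeR adjusted p = 0.0172). Atf6, a sensor of the unfolded protein response, fell (-0.60 ± 0.16, 0.0362), a fall that became 0.16 with total reads as the scale. The list's median was 0.04 beside 0.01 for all genes. None of the 13 passed with TMM scaling in the other 4 comparisons, with 1, 1, 3 and 4 of them at an unadjusted p under 0.05 and 1, 0, 0 and 2 passing with DESeq2, in the order given above. Of all genes, 17.5%, 2.08%, 6.1% and 26.4% had an unadjusted p under 0.05 in these 4, and 29.5% in IR+Gli1 against IR+GFP. DESeq2 passed 3.96%, 0.0559%, 0.238% and 11% of all genes in these 4, and 14.7% in IR+Gli1 against IR+GFP. Counts in the lists that follow are read beside the same shares. With total reads 7 of the 13 were higher and none lower in IR+Gli1 against IR+GFP, and 7 were lower and none higher in IR+Shh against IR+Gli1, among 67.6% and 56% of all genes in those directions.

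Exocytosis genes tied to Bhlha15 were tested for 10 of 12. In IR+Gli1 against IR+GFP 2 fell: Sytl1, a Rab27 effector of granule docking (-0.38 ± 0.10, edgeR adjusted p = 0.0405), and Gjb1, the gap junction protein connexin 32 (-0.78 ± 0.21, 0.0410). With total reads as the scale neither was lower by the test, at 0.41 and -0.04. Of all genes, 5.71% passed as lower there with TMM scaling. The list's median was -0.10 beside 0.01 for all genes. With TMM scaling none passed in the other 4 comparisons; 4, 1, 1 and 3 had an unadjusted p under 0.05 and 1, 0, 0 and 2 passed with DESeq2. With total reads 6 of the 10 were higher in IR+Gli1 against IR+GFP and 4 lower in IR+Shh against IR+Gli1, with none the other way. Of 11 mucous genes tied to Spdef, 4 were tested and none passed in the 5 comparisons with TMM scaling. With total reads 2 of the 4 were higher in IR+Gli1 against IR+GFP and 2 lower in IR+Shh against IR+Gli1. Their unadjusted counts were 1, 0, 1, 0 and 1, DESeq2 passed 1 in IR against NT, and their median there was -0.75 beside -0.02 for all genes. Without NT 2 and 3, the libraries with the sublingual mRNAs, it was -0.13 beside -0.01, an alternative added after the data were seen.

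Other salivary products were tested for 12 of 22. In IR+Gli1 against IR+GFP 3 rose and 1 fell, among 8.23% and 5.71% of all genes. Ltf, the iron-binding protein lactoferrin, rose (edgeR adjusted p = 0.0134): it had 1 to 3 reads in each IR+GFP library, and 245, 244 and 38.7 CPM in those of IR+Gli1. Wfdc18, a small whey acidic protein family member, rose from 24.4 to 28.5 to 1106, 1107 and 650 (4.24 ± 0.68, 0.0131). Duoxa2, the maturation factor of the oxidase that makes hydrogen peroxide for Lpo, rose by 0.80 ± 0.20 (0.0308), and Amy1, the salivary amylase, fell (-0.75 ± 0.19, 0.0313), which became 0.01 with total reads as the scale. With total reads 5 of the 12 were higher and none lower, among 67.6% and 0.622% of all genes. In IR+Shh against IR+Gli1 the same 4 genes passed in the opposite direction, where 2.76% of all genes passed as higher and 4.99% as lower. With total reads Amy1 stood there at 0.12 (edgeR adjusted p = 0.549) and no longer passed, and 5 of the 12 were lower and none higher, among 56% and 0.587% of all genes. None of the 12 passed in IR against NT, where 5 had an unadjusted p under 0.05 and DESeq2 passed 3, beside 17.5% and 3.96% of all genes. Their median there was -0.64 beside -0.02 for all genes. Without NT 2 and 3, the libraries with the sublingual mRNAs, it was -0.24 beside -0.01, an alternative added after the data were seen. In IR+GFP against IR and IR+Shh against IR+GFP none passed by any of these counts.

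The 8 acinar markers had 1 rise and 1 fall in IR+Gli1 against IR+GFP, where 8.23% of all genes passed as higher and 5.71% as lower. Ano1, the apical chloride channel, rose by 0.66 ± 0.15 (edgeR adjusted p = 0.0188), and Slc12a2, the basolateral chloride importer, fell (-0.73 ± 0.18, 0.0286), which became 0.04 with total reads as the scale. Slc12a2 was higher in IR+Shh than in IR+Gli1 (0.71 ± 0.18, edgeR adjusted p = 0.0474), a call lost with total reads (0.08, edgeR adjusted p = 0.697), where 3 of the 8 markers were lower and none higher. The markers' median in IR+Gli1 against IR+GFP was -0.37 beside 0.01 for all genes, and with total reads 4 of 8 were higher and none lower, among 67.6% of all genes higher. In IR against NT none passed, 2 had an unadjusted p under 0.05 and 1 passed with DESeq2; in IR+GFP against IR and IR+Shh against IR+GFP none passed by any of these counts.

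Across the 10 samples, the log2 levels (TMM-scaled) of Mucl2 and Car6 ran together, with r = 0.950, and 0.965 over 9 samples without NT 2 and 3. Spdef and Creb3l1 had r = 0.953 over 10 samples and 0.668 over 9, and Spdef and Bpifa2 0.837 and 0.139. Without NT 2 and 3 Spdef ran instead with Bhlha15 (0.963 over 9 samples, 0.459 over 10). The genes most like each member over the 10 samples were mt-Co1 and mt-Cytb for Mucl2 (r = 0.983 and 0.982), Ret and mt-Nd5 for Car6 (0.985 and 0.975), Ggcx and Sntb1 for Pip (0.956 and 0.950), Ripor2 and Smco4 for Lpo (0.963 and 0.961), and Dcpp1 and Eri3 for Bpifa2 (0.948 and 0.930). For the factors they were Abca9 and Kank4 for Bhlha15 (both 0.947), Slc38a1 and Lman1l for Spdef (0.981 and 0.976), and Rab3d and Mup4 for Creb3l1 (0.966 and 0.965). Without NT 2 and 3, mt-Co1, Ret and Ripor2 were still among the 2 genes most like Mucl2, Car6 and Lpo, and those of the other 5 members were replaced. These values are across samples that share group and scaling, and they carry no test.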

How the data were processed

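Each library has 1 deposited table of raw read counts by Ensembl gene, not normalized. The submitters' processing notes name HTSeq 0.10.0, TopHat2 2.0.13, Bowtie 0.12.2 and DESeq2, and the builds GRCm38 and mm10. Strand mode and annotation release are not given in the sources used here. Per the labels' protocols, RNA was purified with RNeasy and 1 ug went into a TruSeq RNA kit. Reads given to no gene (6.98% to 13.9% per library) were left out. Symbols and coordinates came from GENCODE vM21 (GRCm38), where none of the 8 genes overlaps another gene.

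Near-identical libraries (mean chi-square per gene under 1 over genes with at least 20 reads) were combined by the rounded mean of their counts, which left 10 samples. All groups entered 1 fit in edgeR 4.0.16 under R 4.3.3 (filterByExpr, TMM, robust quasi-likelihood test, prior count 2, 5 residual degrees of freedom). Tests were two-sided, with Benjamini-Hochberg adjustment over 14300 genes and a threshold of 0.05; the analysis was tested on simulated data. Standard errors are those implied by the quasi-likelihood F. Alternatives were other scalings, filters and samples, the replicate block and DESeq2 1.42.0. Members, lists and tests were chosen with earlier results of these data known. The text names all 8 members and the 2 genes most like each by Pearson r (mean of at least 2 CPM). It also names up to 2 genes per list with the smallest adjusted p among those that passed. Duoxa2, Amy1, Prol1 and the genes of the sublingual sum, Aqp5, Wfdc12, Gli1 and Shh were named after their values were seen.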

Additional observations from a re-analysis of the deposited data

How the results depend on the processing

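All 15 libraries were also fitted separately with a replicate block. There 4 genes passed in IR against NT, 4 in IR+Gli1 against IR+GFP and 4 in IR+Shh against IR+Gli1. The counts were the same for 15 libraries without the block. Near-identical libraries count as replicates in both fits. The share of all genes passing in these fits was not counted, so the counts are not read as results about the members. The numbers did not pair the libraries: of 30 same-numbered pairs 3 had r over 0.1, and the best match of 6 of 15 libraries had their own number. Signs that turned in the 15-library fits without and with the block, all far from the threshold, were those of Lpo in IR+Shh against IR+GFP (0.051 and 0.038) and against IR+Gli1 (0.022 and 0.021) and of Pip in IR+GFP against IR (0.040 and 0.051). The cause of these and the following changes was not tested.

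With no filter on low counts, 3 genes passed in IR against NT, 1 in IR+GFP against IR and 5 in IR+Gli1 against IR+GFP. There were 1 in IR+Shh against IR+GFP and 6 in IR+Shh against IR+Gli1. The share of all genes passing without the filter was not counted, so these counts are not read as results about the 8 genes. In that fit the SE of Bpifa2 in IR against NT was 0.244, beside 3.80 with the filter. Its NT samples held 5 and 43652 reads. DESeq2 passed 1 in IR against NT, and 3 each in IR+Gli1 against IR+GFP and IR+Shh against IR+Gli1, with Car6 added. A fit of only the 2 groups compared passed 0 in IR+Gli1 against IR+GFP and 0 in IR+Shh against IR+Gli1, with fewer samples to estimate the spread. Total-read scaling turned the sign of Car6 (0.091) and Lpo (0.13) in IR+Shh against IR+GFP, of Creb3l1 (0.32), Pip (0.16) and Spdef (0.20) in IR+Gli1 against IR+GFP, and of Creb3l1 (-0.35) in IR+Shh against IR+Gli1. Over gene reads less the 8 members, the 8 genes came to 22.5 reads per 100 in IR+Gli1, 51.3 in IR+Shh, 30.2 in untreated glands, 39.3 in IR and 43.8 in IR+GFP.

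Without IR+GFP 3 and IR+Gli1 3, signs turned for Lpo (-0.18) in IR+Gli1 against IR+GFP and for Lpo (0.15) and Bpifa2 (0.27) in IR+Shh against IR+Gli1. They also turned for Pip in IR+GFP against IR (0.13), and for Mucl2 (-0.017) and Pip (-0.060) in IR+Shh against IR+GFP. Leaving out each sample in turn left 1 sample in its group, so only the ranges of the differences are given. The ranges that crossed 0 were, in IR against NT, Bpifa2 -10.77 to 2.07 and Pip -0.44 to 0.12; in IR+GFP against IR, Mucl2 -0.0054 to 0.28, Pip -0.28 to 0.13 and Spdef -0.010 to 0.32; in IR+Gli1 against IR+GFP, Lpo -0.16 to 0.34. In IR+Shh against IR+GFP they were Car6 -0.14 to 0.025, Lpo -0.22 to 0.18, Mucl2 -0.13 to 0.14 and Pip -0.093 to 0.35, and in IR+Shh against IR+Gli1, Bpifa2 -2.11 to 0.26, Creb3l1 -0.018 to 0.61 and Lpo -0.35 to 0.15. With 2 samples per group, a gene that missed the threshold is not shown to be equal; counts at the depth of Mucl2, Car6 and Pip are not limited by reads, whereas Bpifa2 rests on 5 to 71 reads in 8 of the 10 samples.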
